A study of Mus musculus with 3 samples.

Results

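The immediate early genes described here are Fos, Fosl2, Jun, Junb, Jund, Egr1, Egr3, Nr4a1, Nr4a3 and Arc, 10 of the 30559 genes counted in single nuclei of differentiated mouse neurospheres. They were chosen by symbol, with no limit set on their levels, though earlier results of these data were known. All 10 had at least 1 unique molecular identifier (UMI, the tag that marks a single captured transcript). Neurospheres are floating cultures grown from neural stem cells, here of the subventricular zone of newborn C57BL/6 pups, and were plated and kept for 15 days in vitro under differentiating conditions. There were 3 libraries, each of nuclei sorted by flow cytometry from a pool of about 15 cultures. The control library carried the genotype label control, and its cultures received a lentivirus for red fluorescent protein according to the methods. The CBP-ablated library (CBPf/f, with loxP sites in Crebbp) and the p300-ablated library (p300f/f, with loxP sites in Ep300) came from cultures given a lentivirus for Cre recombinase fused to mCherry. The labels of all 3 samples give the treatment as tamoxifen instead, and the mouse line of the control cultures was not stated. Each condition had 1 library, so no test between conditions was made, and every interval below is a 95% interval of counting error that leaves out the variation between cultures.

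There were 4884 nuclei in the control library, 3017 with CBP ablated and 4648 with p300 ablated, with 16312170, 12748336 and 18876682 UMIs and median depths of 3219, 4016 and 3902.5 UMIs per nucleus. Of all barcodes, the control library shared 3 with the CBP-ablated and 7 with the p300-ablated one, and the ablated libraries shared 1. Summed Crebbp counts of 335, 370 and 365 CPM (UMIs of a gene for every 1000000 UMIs counted) and summed Ep300 counts of 114, 136 and 115 CPM, in that order, were not lower in the library labelled for each gene. The study describes recombined Ep300 as leaving no mature messenger RNA and recombined Crebbp as still giving a truncated protein. Per the study, reads in both exons and introns were counted, so these sums do not single out mature RNA. The study also reports the removal of CBP and p300 in differentiating cultures and shows CBP staining lost after Cre. Tags at the 3′ end lie outside the deleted exon, and nuclei also hold unspliced RNA. The loss of either gene was thus not seen in these counts, and CBP-ablated and p300-ablated stand below for what the labels say, in every direction given. Nuclei were grouped into 13 clusters, 10 of which took a name from marker lists, and the names carry the ending -like because most of those markers had been picked by the study from these same libraries. Astrocyte-like nuclei numbered 1276 in the control library and 0 in both ablated libraries, and the share of oligodendrocyte-like nuclei was 3.28% in the control, 16.1% after CBP ablation and 4.15% after p300 ablation.

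Immediate early genes are transcribed within minutes of a growth factor, depolarization or stress signal, without new protein being made first. Kinases of the MAPK and calcium pathways act on factors already bound near these genes, among them CREB and the SRF and ELK proteins, and CREB recruits the acetyltransferases CBP and p300. FOS and JUN family proteins pair to form AP-1, EGR proteins are zinc finger factors, NR4A proteins are orphan nuclear receptors, and Arc is a synaptic protein whose messenger RNA is carried into dendrites. In neural cultures their RNA is known to be short-lived, so nuclei catch it for a limited time after a signal. Dissociation of tissue is itself known to induce these genes.

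The window of 250 bases before the RefSeq start (GRCm38.p6) was used for 7 of the 10 genes, and not for Egr1, Egr3 and Arc. It was searched on both strands for TGACG, the core of the CREB binding motif, because CBP and p300 were ablated. TGACG is called the half-site below. The windows of Fosl2 and Nr4a3 overlap an annotated exon of GENCODE M21. The half-site was found in 4 windows, those of Fos, Junb, Nr4a1 and Nr4a3, and not in those of Fosl2, Jun and Jund. Of all 32851 RefSeq windows of this length, 17.8% held it. Its distance from the start was 129 and 66 bases in Fos, 106 bases in Junb, 233, 213, 69 and 40 bases in Nr4a1, and 231, 213, 205 and 147 bases in Nr4a3. Half-sites are in capitals in the windows of Fos (chr12:85473640-85473889, plus strand, upstream of the gene), Junb (chr8:84978749-84978998, minus strand, upstream of the gene) and Nr4a1 (chr15:101266596-101266845, plus strand, in an intron of the longer GENCODE M21 gene), each read 5′ to 3′ on the strand of its gene.
Fos: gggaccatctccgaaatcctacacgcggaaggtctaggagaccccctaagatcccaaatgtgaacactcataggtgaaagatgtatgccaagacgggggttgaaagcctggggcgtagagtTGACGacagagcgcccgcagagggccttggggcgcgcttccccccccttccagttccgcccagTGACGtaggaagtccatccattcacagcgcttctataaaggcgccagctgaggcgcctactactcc
Junb: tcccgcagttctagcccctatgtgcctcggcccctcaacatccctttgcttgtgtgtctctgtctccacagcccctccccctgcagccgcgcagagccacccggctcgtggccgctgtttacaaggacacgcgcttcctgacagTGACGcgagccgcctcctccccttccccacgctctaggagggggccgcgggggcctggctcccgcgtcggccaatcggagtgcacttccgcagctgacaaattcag
Nr4a1: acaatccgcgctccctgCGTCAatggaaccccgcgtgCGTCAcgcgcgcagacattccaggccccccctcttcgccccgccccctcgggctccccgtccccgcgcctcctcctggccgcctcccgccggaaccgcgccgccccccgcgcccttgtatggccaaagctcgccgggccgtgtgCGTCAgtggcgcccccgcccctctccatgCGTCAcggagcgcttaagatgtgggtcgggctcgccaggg
The capitals read CGTCA where the half-site lies on the opposite strand. The full palindrome TGACGTCA, which contains 2 overlapping half-sites, was in none of the 7 windows and in 1.55% of all windows. TGANTCA, the AP-1 motif, was in none of them against 6.75% of all windows, and the CArG box that SRF binds was in none against 1.47%. GCGNGGGCG, the EGR motif, was in the windows of Fosl2 and Nr4a1 against 4.70% of all windows, and TATAAA was in that of Fos against 12.4%. These are matches of letters in 1 short window per gene and were not tested for binding.

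Summed over all nuclei, Fos was highest in the p300-ablated and lowest in the CBP-ablated library. Fos (ENSMUSG00000021250, GRCm38 chr12:85473890-85477273) had 393 UMIs in control, 217 after CBP ablation and 1089 after p300 ablation, or 24.1, 17.0 and 57.7 CPM. The intervals of these 3 levels did not overlap, with the p300-ablated library highest and the CBP-ablated library lowest. The log2 ratio to control was 1.26 (1.09 to 1.43) after p300 ablation and -0.50 (-0.75 to -0.26) after CBP ablation. Fosl2 (chr5:32135801-32157842), which encodes the FOS relative FRA2, had 100, 49 and 113 UMIs, or 6.13, 3.84 and 5.99 CPM. Its log2 ratio was -0.67 (-1.20 to -0.17) after CBP ablation and -0.03 (-0.44 to 0.37) after p300 ablation, so that it did not show the high p300-ablated level of Fos.

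Among the JUN family, the partners of FOS in AP-1, Jun (chr4:95049034-95052222) was counted most often, with 844, 526 and 1361 UMIs in the same order of libraries, or 51.7, 41.3 and 72.1 CPM. Its log2 ratios were -0.33 (-0.49 to -0.17) and 0.48 (0.35 to 0.60), in the same directions as those of Fos but smaller. Junb (chr8:84974484-84978718) had 81, 50 and 179 UMIs, or 4.97, 3.92 and 9.48 CPM, with log2 ratios of -0.34 (-0.88 to 0.19) and 0.93 (0.55 to 1.33). Jund (chr8:70698949-70700616), the JUN gene with the steadiest known expression, had 260, 217 and 310 UMIs, or 15.9, 17.0 and 16.4 CPM. Its log2 ratios of 0.09 (-0.17 to 0.36) and 0.04 (-0.20 to 0.29) were the closest to 0 in the CBP-ablated library among the genes with at least 20 UMIs. Jun lies opposite the counted gene Junos (837 UMIs over all libraries) and Junb opposite Prdx2 (1304 UMIs). Whether counting used the strand of reads was not given in the sources used here, so reads of these partners cannot be told apart from those of Jun and Junb if it did not.

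Egr1 (chr18:34859823-34864984) had 291, 166 and 910 UMIs, or 17.8, 13.0 and 48.2 CPM. The p300-ablated level was above the other 2, with a log2 ratio of 1.43 (1.24 to 1.63), while that of the CBP-ablated library was -0.45 (-0.74 to -0.17). Egr3 (chr14:70077203-70082614), which acts downstream of receptor signals in lymphocytes, muscle spindles and neurons, had 11, 1 and 13 UMIs, or 0.674, 0.0784 and 0.689 CPM. The single UMI of the CBP-ablated library lies under the 0.235 CPM that 3 UMIs stand for there, and with 12 UMIs in both libraries together the log2 ratio of -3.10 had an interval from -8.53 to -0.32.

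Of the orphan nuclear receptors, Nr4a1 (NUR77, chr15:101254269-101274795) had 202, 107 and 306 UMIs, or 12.4, 8.39 and 16.2 CPM, with log2 ratios of -0.56 (-0.91 to -0.22) and 0.39 (0.13 to 0.65). Nr4a3 (NOR1, chr4:48045153-48086447) had 38, 21 and 50 UMIs, or 2.33, 1.65 and 2.65 CPM, and both of its intervals held 0. Arc (chr15:74669083-74672570) had 16, 46 and 19 UMIs, or 0.981, 3.61 and 1.01 CPM. It was the only one of the 10 genes more than 2-fold higher in the CBP-ablated library, with a log2 ratio of 1.88 (1.03 to 2.80), against 0.04 after p300 ablation, where the interval held 0.

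**Figure D1:**
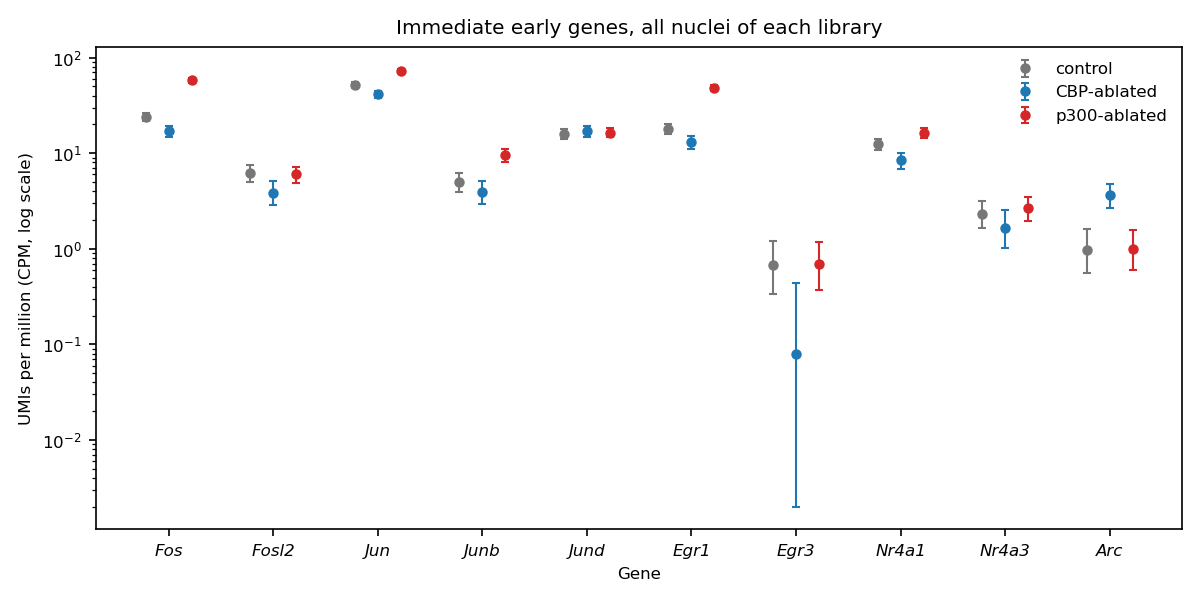
Level of each immediate early gene in the 3 libraries, in CPM over all nuclei (log axis), with points for the level and bars for exact Poisson 95% intervals. Fos, Junb and Egr1 lie highest in the p300-ablated library (57.7, 9.48 and 48.2 CPM), Arc lies highest in the CBP-ablated library (3.61 CPM), and Jund is between 15.9 and 17.0 CPM in all 3.

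In the CBP-ablated library 9 of the 10 genes had at least 20 UMIs together with control. Of these, 1 was more than 2-fold higher (Arc) and 0 were more than 2-fold lower, where 4.18% and 5.68% of 15930 genes were past those limits. The ratio was below 0 for 7 and above 0 for 2 of them, and the median log2 ratio was -0.45 against 0.05 over all genes. In the p300-ablated library all 10 reached 20 UMIs, 2 were more than 2-fold higher (Fos and Egr1) and 0 more than 2-fold lower, where 1.87% and 3.87% of 16274 genes were. The ratio was above 0 for 9 and below 0 for 1, with a median of 0.29 against -0.04 over all genes. Both comparisons share the control library, so a low or high control level would enter both. In sums over all nuclei, fewer nuclei of a type and less RNA per nucleus cannot be told apart.

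Levels were set between genes per kilobase of exon. This scale is rough here because 3′ tags do not grow with gene length and, per the study, introns were counted too. On that scale Jun (16.2), Fos (10.2) and Jund (9.56 CPM per kilobase) led in control, and Egr1 stood at 3.98. In the p300-ablated library Fos (24.5) and Jun (22.6) led, and Egr1, at 10.8, stood beside Jund at 9.85.

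The other early response genes behaved unevenly. Their ratios here are sums over all nuclei, and control held 1276 astrocyte-like nuclei where both ablated libraries held 0. How far that makeup enters these ratios was not tested. Of 36 listed, 32 had 20 UMIs in the CBP-ablated comparison, 2 of them more than 2-fold higher and 8 more than 2-fold lower, beside 4.18% and 5.68% of all genes, with a median log2 ratio of -0.14. Fosb, a FOS family gene, had 1 UMI in the CBP-ablated library against 23 in control (log2 ratio -4.17, -9.53 to -1.55), and Klf4, a zinc finger factor, had 1 against 21 (-4.04, -9.41 to -1.40). Dusp5, a phosphatase of ERK, had 5 against 28 (-2.13), and Bdnf, the neurotrophin, 39 against 148 (-1.57). Ptgs2, the inducible cyclooxygenase, was on the other side with 14 against 6 (1.58). In the p300-ablated library 31 had 20 UMIs, 6 more than 2-fold higher and 1, Bdnf (73 against 148, -1.23), more than 2-fold lower, beside 1.87% and 3.87% of all genes, with a median of 0.23. The 5 largest were Fosb with 197 UMIs against 23 (2.89, 2.26 to 3.58), Maff, a small MAF factor, with 44 against 14 (1.44), Atf3, a stress-induced bZIP factor, with 193 against 62 (1.43), and the Krüppel-like factors Klf2, with 31 against 11, and Klf4, with 59 against 21 (both 1.28).

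Genes that act upstream were all within 2-fold of control. Of 25 kinases and transcription factors that drive early genes, such as Srf, Creb1, the ERK kinases and the CRTC coactivators, 25 had 20 UMIs and 0 were past 2-fold in either library. Only 4.18% and 5.68% of all genes were past 2-fold higher and lower after CBP ablation, and 1.87% and 3.87% after p300 ablation, so a count of 0 says little about these 25. Their log2 ratios ran from -0.88 (Mef2c, a MADS box factor, -1.03 to -0.73) to 0.75 (Mapk3, which encodes ERK1, 0.40 to 1.11) in the former library, and Mef2c was also the lowest in the latter, at -0.69 (-0.81 to -0.56). Both were named after their values were seen. Their median log2 ratios were 0.09 after CBP ablation and 0.00 after p300 ablation. Heat shock genes, which also answer to handling, had medians of 0.15 over 9 and 0.11 over 10 of 12 genes, with 0 past 2-fold.

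Summed over the 3 libraries, each gene had its own distribution over the classes of nuclei, and that of control alone differed for several genes. Glial progenitor-like nuclei (1411, marked by Gfap, Aqp4 and Mgat5) held 31.5% of all Fos UMIs and 37.4% of all Junb UMIs with 9.78% of all UMIs counted. Egr1 had 35.2% of its UMIs in NPC/OPC-like nuclei (3073, marked by Pdgfra and Cspg4, genes of oligodendrocyte precursors), which held 23.6% of all UMIs. In control alone, astrocyte-like nuclei held 29.3% of Fos and 25.9% of Junb with 24.0% of control UMIs. Glial progenitor-like nuclei held 20.1% and 19.8% with 8.23% of control UMIs. Astrocyte-like nuclei also held 44.0% of control Egr1, against 18.6% in NPC/OPC-like nuclei, which had 20.6% of control UMIs. Fosl2 had 41.6% of its UMIs in RGC/PSC-like nuclei (radial glia and progenitor-like, 1699) and 3.44% in the more numerous NPC/OPC-like nuclei. In control alone, RGC/PSC-like and astrocyte-like nuclei each held 31 of its 100 UMIs, with 10.6% and 24.0% of control UMIs. Nr4a1 had 37.4% of its UMIs in NPC/OPC-like nuclei. It had 74 of 615 (12.0%) in committed oligodendrocyte precursor-like nuclei, near their 11.8% of all UMIs. Arc had 72.8% in oligodendrocyte-like nuclei. Nr4a3 was spread over glial progenitor-like (27 of 109 UMIs) and neuron-like nuclei (23 of 109).

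**Figure D2:**
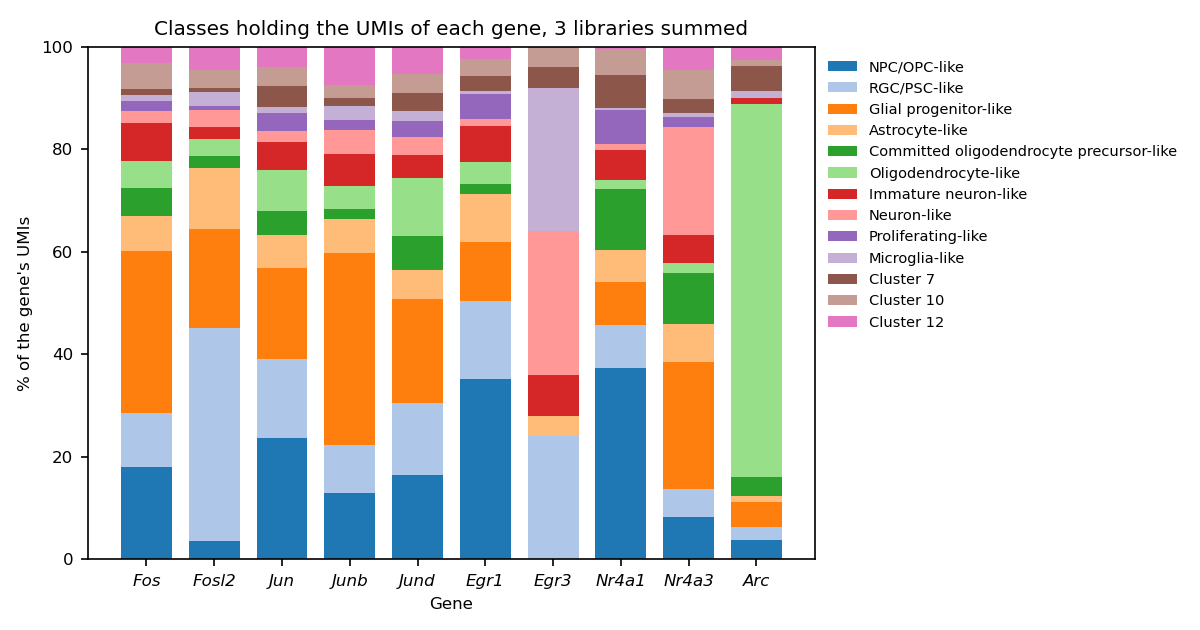
Share of the UMIs of each immediate early gene (percent, stacked bars adding to 100) that lies in each class of nuclei, with the 3 libraries summed. Glial progenitor-like nuclei hold 31.5% of Fos and 37.4% of Junb, RGC/PSC-like nuclei 41.6% of Fosl2, NPC/OPC-like nuclei 35.2% of Egr1 and 37.4% of Nr4a1, and oligodendrocyte-like nuclei 72.8% of Arc. In control alone, astrocyte-like nuclei hold 29.3% of Fos, 25.9% of Junb and 44.0% of Egr1 with 24.0% of control UMIs.

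Levels within classes are given first with the libraries summed, where the p300-ablated library has the most UMIs. Fos reached 114 CPM (105 to 124) in glial progenitor-like nuclei, 43.0 in immature neuron-like nuclei (led by Kcnj6 and Nell2), 39.7 in microglia-like, 33.3 in neuron-like, 29.4 in astrocyte-like and 27.1 in both RGC/PSC-like and NPC/OPC-like nuclei. It was lowest among named classes in proliferating-like (18.3), oligodendrocyte-like (18.0) and committed oligodendrocyte precursor-like nuclei (16.6). Only the step from glial progenitor-like nuclei to the next class exceeded the intervals of neighbours in this order, and it was not seen in every library. In control, Fos in glial progenitor-like nuclei, at 58.9 CPM (46.6 to 73.4), overlapped immature neuron-like nuclei at 40.3 (28.2 to 55.8). After CBP ablation it was at 28.8 (20.6 to 39.3), beside 27.7 in RGC/PSC-like and 48.2 (15.7 to 113) in microglia-like nuclei. Egr1 stood at 42.6 CPM (38.8 to 46.5) in NPC/OPC-like nuclei, between 31.2 and 36.7 in proliferating-like, glial progenitor-like, immature neuron-like, astrocyte-like and RGC/PSC-like nuclei, and at 12.2 or above in the other named classes except committed oligodendrocyte precursor-like nuclei at 4.59 (3.00 to 6.73). The order of Egr1 also differed between libraries. In control it was at 32.7 CPM (27.3 to 38.9) in astrocyte-like and 16.0 (12.0 to 20.9) in NPC/OPC-like nuclei, and after p300 ablation at 65.8 (54.9 to 78.1) in glial progenitor-like and 57.9 (52.4 to 63.9) in NPC/OPC-like nuclei. Jun was at 103 CPM (94.2 to 113) in glial progenitor-like nuclei and between 43.7 and 66.1 in the other named classes except committed oligodendrocyte precursor-like nuclei at 22.6 (18.9 to 26.9).

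Cluster 12, with 260 nuclei, could not be named and had higher levels of several of these genes than any named class. Fos was at 123, Egr1 at 73.2, Jun at 249, Junb at 52.6, Jund at 93.8 and Fosl2 at 27.4 CPM there. The interval of Fos (92.8 to 161) overlapped that of glial progenitor-like nuclei (105 to 124). That of Fosl2 (14.2 to 47.9, from 12 UMIs) overlapped that of RGC/PSC-like nuclei (13.5 to 19.8). The leading genes of cluster 12, named here after their values were seen, were Gm8251, Cenpf, Cdkn1a, Ubb and Btg2. The cluster had a median depth of 1512 UMIs, and its heat shock genes summed to 606 to 820 CPM against 243 to 268 over whole libraries. The part of low depth and of heat shock RNA in these levels was not tested.

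Egr3 was seen in 7 of the 13 classes or clusters, Arc in 11 and Nr4a3 in all 13. Egr3 had 7 of its 25 UMIs in microglia-like nuclei (13.2 CPM, all 7 in the control library), 7 in neuron-like and 6 in RGC/PSC-like nuclei, and 0 in NPC/OPC-like nuclei, where 3 UMIs would stand for 0.265 CPM. Nr4a3 was at 18.7 CPM (11.8 to 28.0) in neuron-like nuclei, with 10 UMIs in control, 1 after CBP ablation and 12 after p300 ablation, or 32.4, 1.68 and 36.6 CPM. In CBP-ablated neuron-like nuclei the 11 UMIs of this pair gave a log2 ratio of -4.27 with an interval from -9.71 to -1.46, below the 20 UMIs asked for.

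Within classes of the p300-ablated library, Fos and Egr1 were higher in the classes and clusters where they had 20 UMIs. Egr1 was more than 2-fold higher in 9 of 9 classes or clusters with 20 UMIs, with log2 ratios from 1.10 to 2.92 and a median of 1.85, and the interval lay above 0 in 8 of them. Over all classes and clusters compared, also those where Egr1 had under 20 UMIs, 3.13% of values of all genes were past that limit. Among the latter, committed oligodendrocyte precursor-like nuclei (392 control and 236 p300-ablated) had 8 Egr1 UMIs in control and 8 after p300 ablation. Microglia-like nuclei had 3 and 3, and neuron-like nuclei 1 and 15. Fos was higher in 10 of 10, more than 2-fold in 8, with log2 ratios from 0.10 to 3.07 and the interval above 0 in 6. Jund was on both sides, above 0 in 3 and below 0 in 6 of 9, with no interval that left out 0. Over the 9 named classes compared, 18 of 44 values of the 10 genes were more than 2-fold higher and 0 more than 2-fold lower, where 2.93% of the values of all genes in these classes were higher and 2.63% lower. Because 20 UMIs were asked of the pair of libraries, for all genes alike, a gene rare in control could enter only through high p300-ablated counts.

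NPC/OPC-like nuclei (1011 control and 1756 p300-ablated) had Egr1 at 16.0 CPM in control and 57.9 in p300-ablated nuclei (54 and 396 UMIs), a log2 ratio of 1.85 (1.44 to 2.29). Fos was at 16.9 and 34.8 CPM (57 and 238 UMIs), a log2 ratio of 1.04 (0.62 to 1.48). Junb, with 8 and 30 UMIs, had a log2 ratio of 0.89. Jun, Nr4a1 and Jund were closer together, with log2 ratios of 0.23, 0.18 and -0.33 whose intervals held 0. Thus 2 of 6 genes were past 2-fold against 1.75% of all genes in these nuclei. RGC/PSC-like nuclei (486 and 824) had Egr1 at 16.2 and 42.6 CPM (28 and 140 UMIs), a log2 ratio of 1.39 (0.80 to 2.03), while Fos, at 20.9 and 30.1 CPM, had a log2 ratio of 0.53 (-0.03 to 1.12). Jun was at 60.9 and 60.6 CPM and Fosl2, which these nuclei hold most of, at 18.0 and 15.8 CPM, so that 1 of 7 genes was past 2-fold against 2.19% of all genes and their median log2 ratio was -0.01.

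In the oligodendrocyte lineage, committed oligodendrocyte precursor-like nuclei had 20 Fos UMIs in control and 43 after p300 ablation (log2 ratio 1.61, 0.82 to 2.46), and oligodendrocyte-like nuclei had 11 and 46 (13.0 and 38.8 CPM, 1.57, 0.60 to 2.67). Egr1 in oligodendrocyte-like nuclei had 3 UMIs in control and 32 after p300 ablation, or 3.55 and 27.0 CPM, and a log2 ratio of 2.92 (1.25 to 5.28). These were 1 of 4 genes in the former class and 2 of 5 in the latter, against 1.8% and 4.09% of all genes. Egr1 reached 20 UMIs in the latter class only through its high p300-ablated count. With 8 and 8 UMIs it did not enter the count of the former class. Neuron-like nuclei had Jun at 38.9 and 94.6 CPM (12 and 31 UMIs, log2 ratio 1.28), and immature neuron-like nuclei had Egr1 at 17.9 and 40.2 CPM with Fos at 40.3 and 43.3 CPM. The largest Fos ratio was in cluster 10, which took no name, with 7 and 71 UMIs and a log2 ratio of 3.07 (1.96 to 4.44). Of its 314 nuclei 195 were called doublets, so this cluster may not be 1 cell type.

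**Figure D3:**
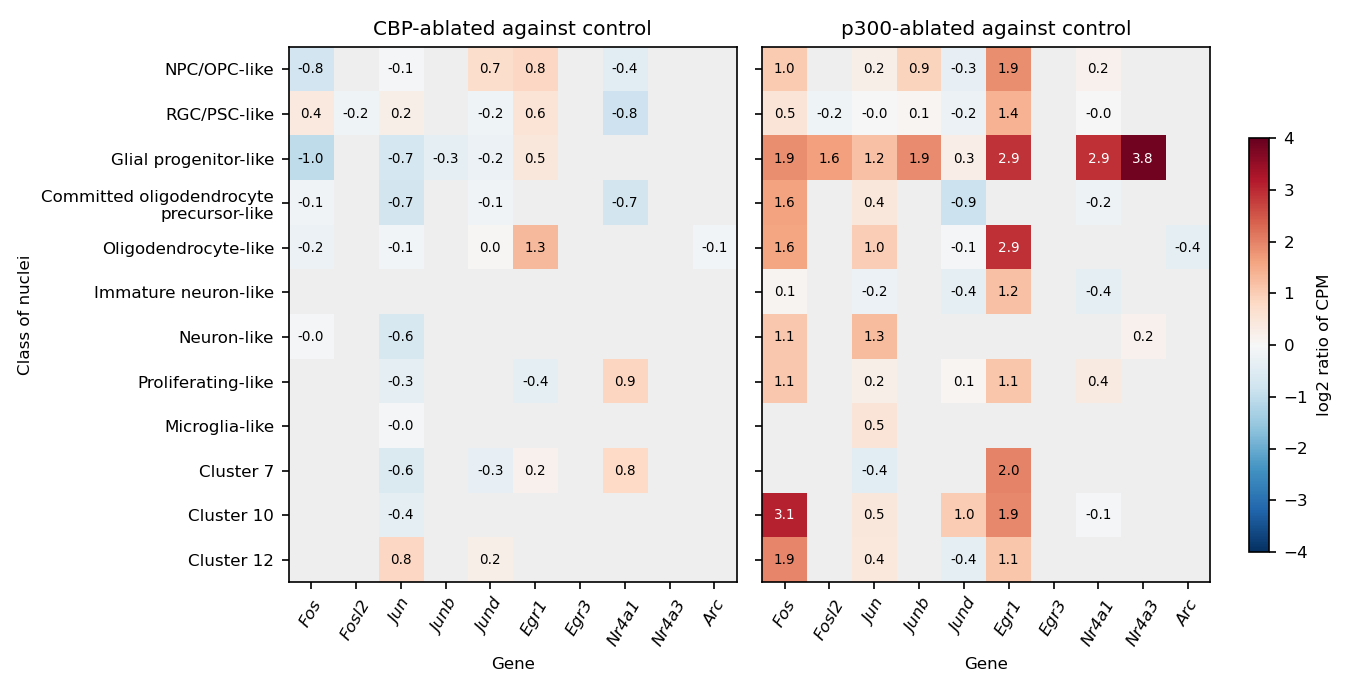
Log2 ratio of CPM of each immediate early gene (columns) within each class of nuclei (rows), for CBP-ablated against control (left) and p300-ablated against control (right). Grey cells had under 20 UMIs in the pair or under 30 nuclei in a library, and the printed values show Egr1 at 1.1 or above in every filled cell on the right and glial progenitor-like nuclei with 7 of 8 values above 1.

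The difference took in more of the genes in glial progenitor-like nuclei than in any other class. Levels here are sums over the class. Most p300-ablated UMIs of the 10 genes lay in 70 of its 573 nuclei, those with UMIs of 3 or more of the genes. That choice by the same UMIs in part makes the share high. The class had 446 nuclei in control, 392 after CBP ablation and 573 after p300 ablation. In the p300-ablated comparison 8 of the 10 genes had 20 UMIs, of which 7 were more than 2-fold higher, against 3.65% of 10397 genes. The 20 UMIs were asked of the 2 libraries together, for all genes alike. A gene rare in control, such as Nr4a3 with 1 UMI against 21, thus entered the count only through its high p300-ablated level. The median log2 ratio was 1.87 against 0.08 over all genes of the class. Fos was at 58.9 CPM in control, 28.8 after CBP ablation and 213 after p300 ablation (79, 40 and 417 UMIs), and the 3 intervals did not overlap. Its log2 ratio after p300 ablation was 1.85, with an upper bound of 2.22. Egr1 was at 8.94, 12.3 and 65.8 CPM (12, 17 and 129 UMIs), with a log2 ratio of 2.88 (2.02 to 3.87) in p300-ablated nuclei. Only the p300-ablated level stood apart from the other 2 for Egr1.

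Of the JUN genes there, Junb was at 11.9, 9.37 and 44.4 CPM (16, 13 and 87 UMIs), a log2 ratio of 1.90 (1.12 to 2.76) in p300-ablated nuclei. Jun was at 73.0, 44.7 and 165 CPM (98, 62 and 324 UMIs), a log2 ratio of 1.18 (0.85 to 1.52). Jund, at 32.8, 28.1 and 39.3 CPM, was the 1 gene of 8 not past 2-fold, with a log2 ratio of 0.26 (-0.29 to 0.83). The orphan receptors were counted more often in p300-ablated than in control nuclei but in few nuclei of either. Nr4a1 had 4, 4 and 44 UMIs (2.98, 2.88 and 22.4 CPM, log2 ratio 2.91, 1.45 to 4.85). Nr4a3 had 1, 5 and 21 UMIs (0.745 CPM in control and 10.7 after p300 ablation, log2 ratio 3.84, 1.21 to 9.21). The p300-ablated UMIs lay in 26 nuclei for Nr4a1 and 9 for Nr4a3, of 573. Fosl2 had 7, 12 and 32 UMIs, with a log2 ratio of 1.64 (0.44 to 3.07).

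Of the other early genes, only those past 2-fold over the whole p300-ablated library were looked at in these nuclei. High ratios here thus follow in part from that choice. Bdnf, the lower one of them, had 13 UMIs in control and 14 in p300-ablated nuclei of this class (log2 ratio -0.44, -1.64 to 0.77). Fosb had 5 UMIs in control and 135 in p300-ablated glial progenitor-like nuclei, or 3.73 and 68.8 CPM (log2 ratio 4.21, 2.95 to 5.85), Atf3 had 7 and 111 (3.44, 2.35 to 4.79), and Klf4 had 4 and 32 (2.45, 0.96 to 4.41). Thus 135 of the 197 Fosb UMIs of the whole p300-ablated library lay in 573 of its 4648 nuclei. Without glial progenitor-like nuclei, an alternative chosen after seeing the data, 1 of 10 genes (Egr1) in place of 2 was past 2-fold in the p300-ablated library. Fos then had a log2 ratio of 0.92, Jun of 0.30, Junb of 0.32 and Nr4a3 of -0.53, and that of Egr1 was 1.31.

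**Figure D4:**
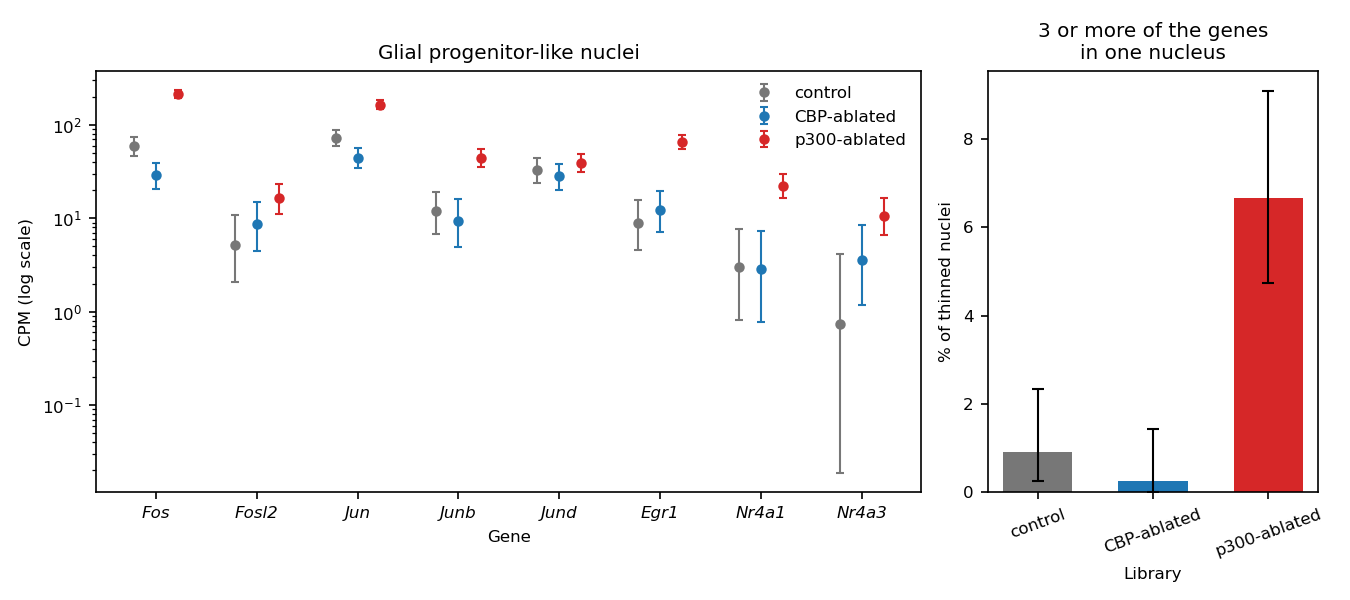
Left, level of 8 immediate early genes in glial progenitor-like nuclei of each library (CPM, log axis, exact Poisson 95% intervals). Right, share of these nuclei, thinned to 1500 UMIs each, with UMIs of 3 or more of the 10 genes (percent, bars from 0, Clopper-Pearson 95% intervals), which is 0.915% in control, 0.258% after CBP ablation and 6.68% after p300 ablation.

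Nuclei with several of the genes were more numerous in the p300-ablated library. There 70 of 573 glial progenitor-like nuclei had UMIs of 3 or more of the 10 genes, against 9 of 446 control nuclei and 10 of 392 after CBP ablation. The 70 nuclei held 917 of the 1133 UMIs of the 10 genes in this class (80.9%). The 9 control nuclei held 83 of 262 (31.7%), and the 10 CBP-ablated nuclei 62 of 193 (32.1%). These nuclei were picked by the same UMIs, so a high share follows in part from the choice. A higher level by itself brings more nuclei to 3 genes. Over whole libraries, the 1% of nuclei that held most Fos had 34.6%, 35.9% and 30.7% of its UMIs in control, after CBP ablation and after p300 ablation. That share falls as more nuclei hold a UMI, and 292, 167 and 562 nuclei did, so it cannot compare how concentrated Fos was. The most Fos UMIs in 1 nucleus were 7, 6 and 13. Among glial progenitor-like nuclei, those with a Fos UMI numbered 42, 24 and 111 and held 1.88, 1.67 and 3.76 Fos UMIs each. After every nucleus was thinned to 1500 UMIs, which left 437, 388 and 554 nuclei, 4, 1 and 37 of them had 3 or more of the genes, or 0.915% (0.250 to 2.33), 0.258% (0.00653 to 1.43) and 6.68% (4.75 to 9.09). Nuclei of 1 library are not replicates, and these shares describe the libraries only.

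Depth and doublets were looked at in the same nuclei. The 70 nuclei had a median of 4010 UMIs against 3306 in the other p300-ablated glial progenitor-like nuclei, and 1 of the 70 was called a doublet. At a finer clustering all 70 lay in the larger of the 2 subclusters that hold most of the class (504 p300-ablated nuclei) and 0 in the smaller (58). Mitochondrial genes made up 0.0233% of UMIs of this class in the p300-ablated library against 0.00954% in control, and heat shock genes summed to 278 against 233 CPM. The markers of its own class summed to 15353 CPM in p300-ablated and 14433 CPM in control nuclei, those of NPC/OPC to 1341 and 821, of astrocytes to 3852 and 5080, of neurons to 661 and 924, of ependymal cells to 85.7 and 35.0, and of microglia to 25.0 and 26.1 CPM. No marker list except those of microglia, endothelium and pericytes (7, 4 and 4 genes, with 2, 2 and 2 at 0) had a gene at 0 in the p300-ablated nuclei. The part of these differences in the levels of early genes was not tested.

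Egr1, Jun and Junb were each seen in a larger share of the nuclei with a Fos UMI than of those without, in all 3 libraries, which was not so for every member. After thinning, Egr1 was found in 23.3% (18.2 to 28.9) of the 258 p300-ablated nuclei with a Fos UMI and in 5.45% of the rest, against 13.3% and 2.20% in control and 13.3% and 1.97% in the CBP-ablated library. Jun was found in 25.2% and 7.43% of p300-ablated nuclei, in 14.7% and 6.17% of control nuclei, and in 9 of 75 and 5.41% of CBP-ablated nuclei. Junb, the rarer AP-1 partner, was in 10.1% of Fos nuclei and 0.658% of others in the p300-ablated library, 6.29% and 0.467% in control, and 5.33% and 0.421% in the CBP-ablated library. Arc was found in 0 of 143, 0 of 75 and 0 of 258 nuclei with Fos (upper bounds 2.55%, 4.80% and 1.42%), against 0.111%, 0.421% and 0.118% of the rest, and Fosl2 in 0 of 75 after CBP ablation against 0.667%. Over whole libraries nuclei with Fos were no deeper, with medians before thinning of 3061 against 3282 UMIs in control, 4023 against 4071 after CBP ablation and 3735 against 3966 after p300 ablation. In glial progenitor-like nuclei those with Fos were deeper after p300 ablation (3716.5 against 3410.5). They were not deeper in control (2717 against 2949) or after CBP ablation (3365 against 3519). No class is known to lack these genes, so a background share from free RNA could not be set beside them.

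The overlap differed between classes. In p300-ablated glial progenitor-like nuclei Jun was found in 39 of 68 nuclei with Fos (57.4%, 44.8 to 69.3) and in 7.20% of those without, and Egr1 in 33.8% and 3.09%. In control nuclei of this class Jun was found in 6 of 26 nuclei with Fos (23.1%, 8.97 to 43.6) and in 5.11% of those without. Egr1 was found there in 7.69% (0.946 to 25.1) and 1.46%. In CBP-ablated nuclei of this class, 14 with Fos, Jun was in 14.3% (1.78 to 42.8) and 4.81%, and Egr1 in 28.6% (8.39 to 58.1) and 0.802%. In control astrocyte-like nuclei, 46 with Fos, Jun was in 13.0% (4.94 to 26.3) and 4.92%, and Egr1 in 23.9% (12.6 to 38.8) and 3.77%. Larger shares beside Fos were thus not particular to the p300-ablated library. In p300-ablated NPC/OPC-like nuclei, by contrast, Jun was found in 9.64% (4.25 to 18.1) of 83 nuclei with Fos and in 8.74% of the rest, and Egr1 in 15.7% (8.61 to 25.3) and 7.71%. Fos and Egr1 also held different proportions, given here in UMIs not scaled by length, to compare classes and libraries only. Of the sum of Fos and Egr1 UMIs, Fos made up 86.8% (78.1 to 93.0), 70.2% (56.6 to 81.6) and 76.4% (72.6 to 79.9) in glial progenitor-like nuclei of the control, CBP-ablated and p300-ablated libraries, and 51.4% (41.7 to 61.0), 26.2% (13.9 to 42.0) and 37.5% (33.8 to 41.4) in NPC/OPC-like nuclei. In committed oligodendrocyte precursor-like nuclei the share of Fos was 71.4% (51.3 to 86.8), 75.6% (59.7 to 87.6) and 84.3% (71.4 to 93.0). In proliferating-like nuclei it was 33.3% (13.3 to 59.0), 35.7% (12.8 to 64.9) and 32.8% (21.8 to 45.4), where the first 2 rest on 18 and 14 UMIs of both genes.

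**Figure D5:**
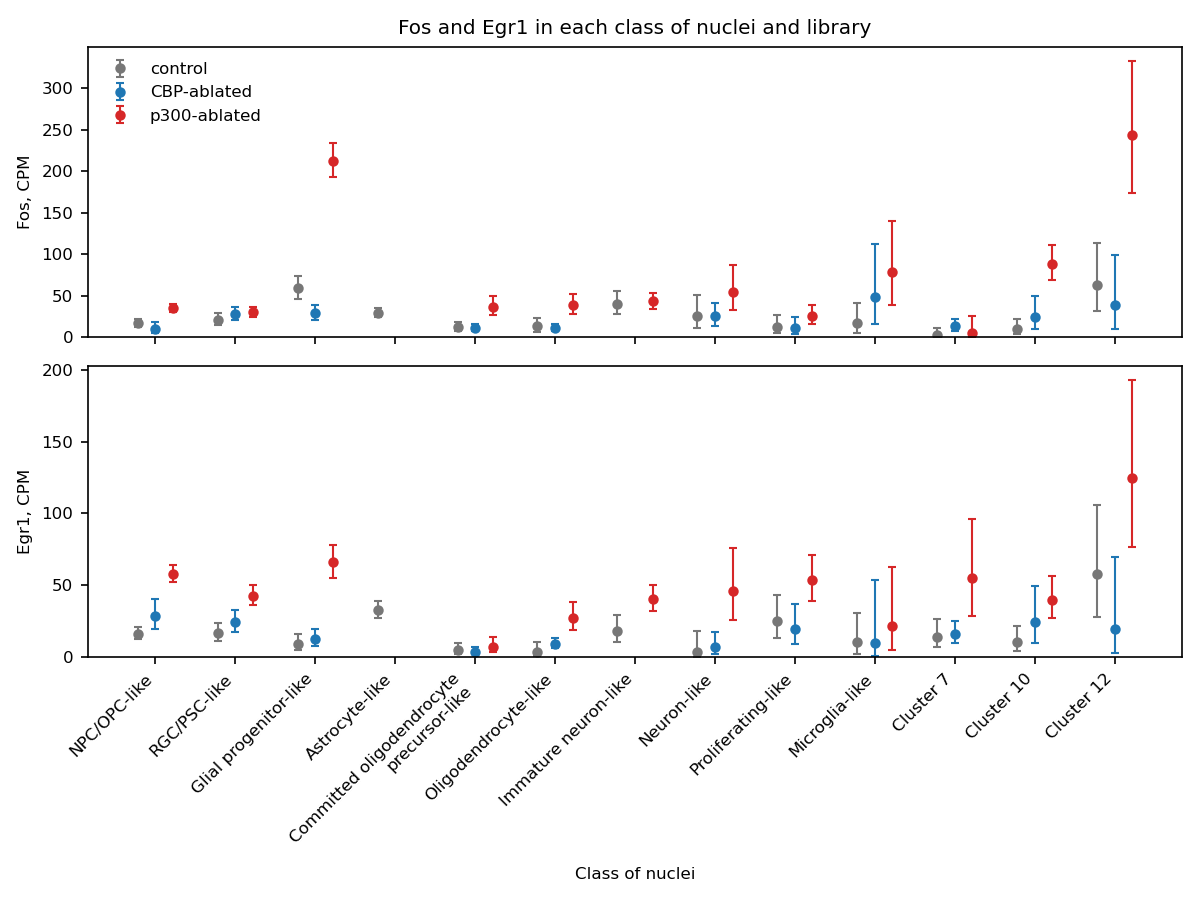
Fos (top) and Egr1 (bottom) in each class of nuclei and library, in CPM with exact Poisson 95% intervals, where a missing point marks a class with under 30 nuclei in that library. Fos is at 213 CPM in p300-ablated glial progenitor-like nuclei against 58.9 in control, and Egr1 in NPC/OPC-like nuclei is at 57.9 against 16.0 CPM.

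Within classes of the CBP-ablated library the genes differed less from control and not all one way. Of 31 values in 8 named classes, 1 was more than 2-fold higher and 1 more than 2-fold lower, where 4.25% of the values of all genes in these classes were higher and 3.37% lower. The lower one was Fos in glial progenitor-like nuclei, with 40 UMIs against 79 and a log2 ratio of -1.03 (-1.62 to -0.46), a class where 2.58% of genes were past that limit. It was within 2-fold at a clustering resolution of 1.2 (-0.82), with a second seed (-0.91), with classes by marker score (-0.70) and without called doublets (-0.95). Jun in these nuclei had a log2 ratio of -0.71 (-1.19 to -0.24). Over all classes and clusters its ratio was below 0 in 9 of 11, with an interval below 0 in 2 and above 0 in 1. The higher one was Egr1 in oligodendrocyte-like nuclei, with 26 UMIs against 3, or 8.80 against 3.55 CPM, and a log2 ratio of 1.31 (-0.40 to 3.68) whose interval held 0, in a class where 6.39% of genes were more than 2-fold higher.

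Egr1 in the CBP-ablated library had a log2 ratio below 0 in the sum and above 0 in most classes. It was above 0 in 5 of 6 classes or clusters with 20 UMIs, with an interval above 0 in 1 and below 0 in 0 of them, from -0.37 in proliferating-like to 1.31 in oligodendrocyte-like nuclei, against -0.45 over all nuclei. In NPC/OPC-like nuclei it was at 28.2 CPM against 16.0 in control (31 and 54 UMIs, 0.81, 0.13 to 1.48), and in RGC/PSC-like nuclei at 24.0 against 16.2 CPM (0.56, -0.18 to 1.32). Astrocyte-like nuclei, present in control alone, held 128 of the 291 control Egr1 UMIs (44.0%) with 24.0% of control UMIs, at 32.7 CPM, and 115 of the 393 control Fos UMIs. Without astrocyte-like nuclei the log2 ratio of Egr1 was -0.01, and with the shares of classes set to those of control it was 0.41. The latter covers only classes with at least 30 nuclei in both libraries, which leaves out astrocyte-like nuclei and immature neuron-like nuclei, of which the CBP-ablated library had 0 and 18. The part of the makeup of the libraries in the lower sum was not tested. In the p300-ablated library the same 2 settings gave 1.87 and 1.75.

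Arc was higher in the sum and not within the class that held most of it. Oligodendrocyte-like nuclei held 11 of 16 Arc UMIs in control, 36 of 46 after CBP ablation and 12 of 19 after p300 ablation. Within these nuclei Arc stood at 13.0, 12.2 and 10.1 CPM, and the log2 ratio of the CBP-ablated library was -0.10 (-1.10 to 1.03) against 1.88 in the sum over all nuclei. Oligodendrocyte-like nuclei held 5.17% of control UMIs and 23.2% of those after CBP ablation. Outside them Arc had 5, 10 and 7 UMIs, or 0.323 (0.105 to 0.754), 1.02 (0.490 to 1.88) and 0.396 (0.159 to 0.815) CPM. With class shares set to those of control over the same classes, the log2 ratio was 0.76.

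The genes whose levels followed each member most closely were sought over 36 groups of library and class, among 6228 genes with at least 1000 UMIs, as a description, since groups share libraries and depth. Jun was closest to Rab21 (Pearson r = 0.82), Mier1 (0.79) and Zmat3 (0.76), and Junb to Hspa5 (0.78), Jun (0.75) and Zc3h13 (0.74). Fos was closest to Anxa7 (0.63), Otud5 (0.61) and Jun (0.60), and Egr1 to Ybx3 (0.69), Clpb (0.64) and Jun (0.64). Jun was thus among the 3 closest genes of Fos, Junb and Egr1. Of the members only Fos, Jun and Egr1 had 1000 UMIs and could be found this way, and Fos had r = 0.62 with Junb. Jund was closest to Anapc16 (0.79), Cdadc1 (0.79) and Rmnd5a (0.78), Fosl2 to Flii, Fam120b and Sod2 (0.73 to 0.74), and Nr4a1 to Myo5b, 2700081O15Rik and Traf4 (each 0.77). Nr4a1 had r = -0.22 with Fos and -0.28 with Junb, and 0.25 with Egr1.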

How the data were processed

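RNA of single nuclei was measured with the 10x Genomics 3′ chemistry in 1 control, 1 CBP-ablated and 1 p300-ablated library. The authors deposited matrices of raw UMI counts per gene and nucleus, with no normalization. Per the labels the reads were counted on GRCm38 with Cell Ranger 3.1, and the submitters' processing notes also name FastQC 0.11.9 and Seurat 2.3.4. Per the study, reads in both exons and introns were counted. Every nucleus was kept, the shallowest with 500 UMIs.

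Counts were summed per library and per class and divided by the UMIs of the same nuclei (CPM). Ratios were given where the pair of libraries held at least 20 UMIs, with conditional binomial intervals for ratios, exact Poisson intervals for levels and Clopper-Pearson intervals for shares, all at 95% and for counting error only. With 1 library per condition no p-value was computed, and a gene past 2-fold is not a test result. A count of 0 was taken to allow 3 UMIs, or 0.184, 0.235 and 0.159 CPM in the control, CBP-ablated and p300-ablated library. Shares of nuclei used nuclei thinned to 1500 UMIs (4636, 2922 and 4513 nuclei).

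Clusters were made in R 4.3.3 (Seurat 5.3.0, Matrix 1.6.5) from 20 principal components of 1602 variable genes, with 30 neighbours and a resolution of 0.6, after 15 early response genes, 6 of them members, had been left out of 1617 variable genes. A cluster took a name when at least 60% and at least 3 markers of a type had UMIs in 10% of its nuclei at 2 times the level elsewhere and 1 of them was among its 10 leading genes, limits chosen once the clusters had been seen. Doublets were called with Scrublet in scanpy 1.11.5 at 0.8% per 1000 nuclei, giving 191, 73 and 173 nuclei, which were kept. Python 3.11.15, numpy 2.4.6, scipy 1.17.1, pandas 2.3.3 and matplotlib 3.10.9 were used. Coordinates are those of GENCODE M21, in which 30410 of 30559 genes were found, and promoter sequences those of RefSeq.

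The text names all 10 members in every library, and within classes a part of those with 20 UMIs. It names genes of the other lists when past 2-fold with 20 UMIs, at most 5 per list and library, and the 3 genes of highest Pearson correlation of log2(CPM + 1) for members with at least 200 UMIs. A few values below 20 UMIs, the leading genes of clusters and example members of the upstream list were named outside this rule. The members and lists were chosen with earlier results of these data known. The ratios were tested on simulated data. The alternatives were other scaling, UMI minimums, doublets left out, deeper or thinned nuclei, classes left out or standardised, and other clusterings.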

Additional observations from a re-analysis of the deposited data

Results flagged for a closer look

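For 4 genes the log2 ratio to control lay on opposite sides of 0 in the ablated libraries, with both intervals leaving out 0. Fos stood at -0.50 after CBP ablation and 1.26 after p300 ablation, and Egr1 at -0.45 and 1.43. Jun stood at -0.33 and 0.48, and Nr4a1 at -0.56 and 0.39. Each ratio rests on 1 library per condition and both share the control library, and the difference between the ablated libraries was not tested. For Egr1 the negative ratio of the CBP-ablated library was 0.41 when class shares were set to those of control over the classes with at least 30 nuclei in both libraries, which leaves out astrocyte-like and immature neuron-like nuclei.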

How the results depend on the processing

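No paired analysis was possible because each condition has 1 library, and for the same reason no replicate could be left out. Over all nuclei, 19 values were recomputed 180 times, of which 167 moved by less than their counting interval and 12 moved further. In the remaining 1 a value whose interval left out 0 changed its direction. That 1 was Egr1 in the CBP-ablated library, at -0.45 as reported and 0.41 with class shares set to those of control, without the astrocyte-like and immature neuron-like classes, which have under 30 CBP-ablated nuclei. Changes of sign were not counted as such for values whose reported interval held 0. Nr4a3 in the p300-ablated library, for example, was above 0 as reported and below 0 without glial progenitor-like nuclei. With the same shares the median log2 ratio of the 10 genes in that library was -0.050 in place of -0.45, and 0 genes were past 2-fold in place of 1. That count was also 0 when 100 UMIs were asked for, and 2 (Arc higher, Egr3 lower) when 1 UMI was enough. In the p300-ablated library 2 genes were past 2-fold as reported and 1 without glial progenitor-like nuclei, a setting chosen after seeing the data. Within named classes of the CBP-ablated library, 2 values were past 2-fold as reported, 4 at resolution 0.3 and with classes by marker score, and 1 at resolution 1.2, with a second seed and without called doublets, where Fos in glial progenitor-like nuclei was within 2-fold. Of 437 repeats of 75 values within classes, 435 moved by less than their counting interval and 2 moved further. In p300-ablated glial progenitor-like nuclei 7 of 8 genes were past 2-fold in each alternative clustering except classes by marker score, where 6 of 8 were. Egr3, Arc and Nr4a3, with 25, 81 and 109 UMIs in all, are limited most by depth.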
